A study of Mus musculus with 43 samples.

Results

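The first 6 h of exposure to TGFB1 were examined in 7215 single cells of irradiated mouse intestinal organoids. Of these, 2932 cells came from the vehicle library (called 0 h) and 4283 from the library treated for 6 h, out of 12323 cells in the 4 libraries of a time course. A cell was kept if it had at least 500 UMIs (unique molecular identifiers, each marking 1 captured RNA molecule) and at most 20% of them from mitochondrial genes. The UMIs of the kept cells of a library were summed per gene and scaled to a library total of 1000000 (CPM). The organoids were wild-type C57BL/6 primary intestinal cultures, three-dimensional epithelial tissue grown from intestinal cells in Matrigel, and all of them had received 4 Gy on day 4 and were collected on day 8. The 6 h library had 1 ng/mL TGFB1 for the last 6 h, the 15 h and 24 h libraries had the same dose for 15 and 24 h, and the 0 h library had vehicle for 24 h. Each time is 1 library, so no difference between times has a replicate check and no test was made between these libraries. All intervals given with CPM are exact Poisson intervals (95%) and cover counting error only. Because the vehicle was present for 24 h, 6 h of TGFB1 and the shorter time since the addition cannot be told apart. A separate bulk RNA-seq experiment, used below as replicated measurements, compared such organoids (C57BL/6 wild type, 4 Gy on day 4) with 2 ng/mL TGFB1 or vehicle from day 6 for 24 h, collected on day 7, in 3 libraries each.

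TGFB1 is a secreted cytokine that binds a pair of receptor kinases, TGFBR2 and TGFBR1. The receptors phosphorylate SMAD2 and SMAD3, which join SMAD4, enter the nucleus and act on genes together with other transcription factors. Among the earliest genes of the pathway are its own inhibitors, such as Smad7, Skil and Pmepa1. In intestinal epithelium the pathway is known for restraining growth and for its part in repair after injury.

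The files hold 54307 gene rows and 53424 symbols, of which 26438 (predicted Gm genes and pseudogenes, 1.65% of UMIs at 0 h and 1.84% at 6 h) were left aside. The 2 libraries held 27346016 and 32430950 UMIs, with medians of 8201.5 and 6709 UMIs per cell and of 2.95 and 3.24% mitochondrial UMIs. They shared 0 cell barcodes. Markers of intestinal epithelium were abundant: Fabp1, a fatty acid binding protein of enterocytes, stood at 8377 and 9067 CPM, Epcam at 1105 and 1547 CPM, and the stem cell gene Olfm4 at 1965 and 2169 CPM. The 11 immune markers summed to 4.74 and 4.57 CPM, with Cd3e, Cd79a, Nkg7 and Tyrobp at 0 UMIs in both libraries, which allows up to 0.110 CPM at 0 h and 0.0925 CPM at 6 h (3 UMIs of the library). The 11 mesenchymal markers summed to 2.07 and 2.17 CPM. Enteroendocrine and tuft markers were sparse (39.4 and 34.8 CPM, 3.29 and 4.69 CPM). Muc2, the main goblet mucin, had only 3.18 and 3.36 CPM, whereas the goblet peptide gene Tff3 had 227.9 and 228.0 CPM.

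After 6 h few genes were far apart. Among 6169 genes with a mean of at least 20 CPM, 46 (0.746%) were at least 2-fold higher at 6 h and 12 (0.195%) at least 2-fold lower. The mean is over both libraries, so a gene under 20 CPM in 1 of them is counted only through a higher value in the other. The median log2 ratio of all these genes was 0.03, with 5th and 95th percentiles of -0.30 and 0.41. The share of them above 0 was not counted, so counts of list members above or below 0 are a description. The most raised gene was Pmepa1, a membrane protein that binds SMADs and limits the pathway, and it was 10.3-fold higher. The most lowered was Nupr1, a stress-induced chromatin protein, with 39.8 CPM at 0 h and 7.62 at 6 h. The most abundant genes past 2-fold were Mt1 and Mt2, the metallothioneins, small proteins that bind zinc and copper, and both were lower at 6 h.

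**Figure D1:**
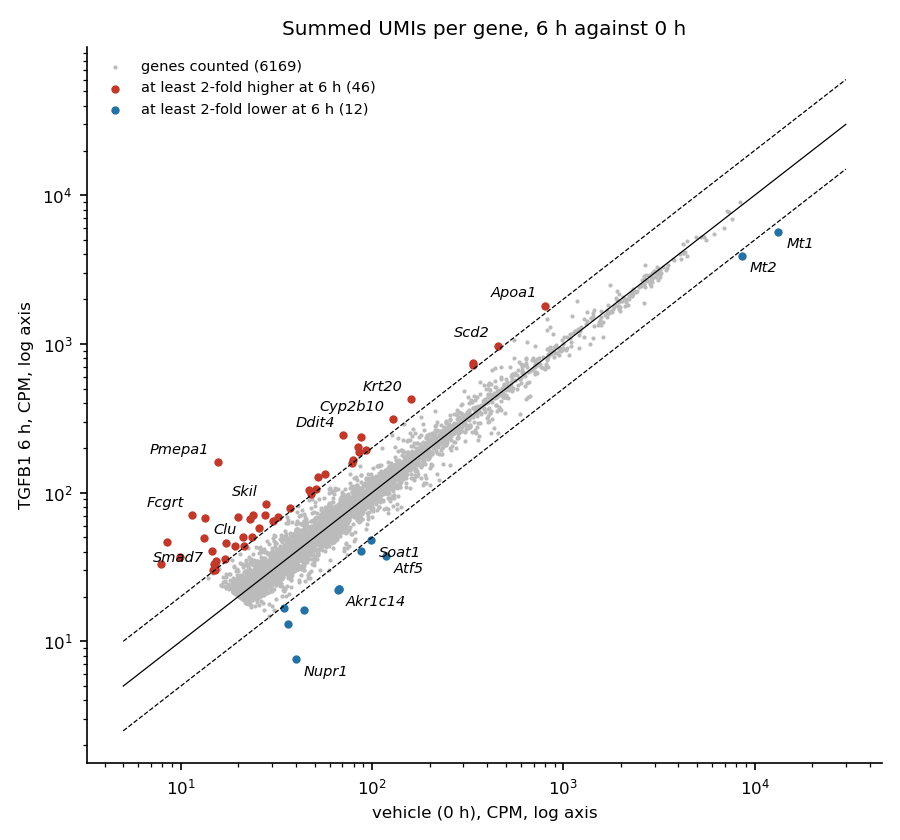
CPM of 6169 genes in the vehicle library (horizontal axis, log scale) and after 6 h of TGFB1 (vertical axis, log scale), 1 library each. The solid line marks equal values and the dashed lines a 2-fold difference. The 46 genes at least 2-fold higher are red and the 12 at least 2-fold lower are blue. Most points lie along the line of equality, with Pmepa1 farthest above it and Nupr1 farthest below.

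Promoter sequences of the genes that moved most were read from RefSeq (GRCm38.p6), 250 bases before to 50 after the start of the gene. Entries were found for 11 of the 15 most raised and 10 of the 15 most lowered genes. The pair Mt1 and Mt2, which lie next to each other on chromosome 8 and were lower together, and the raised genes Krt20 and Marcksl1 are shown, from 5′ to 3′ on the strand of the gene. Capitals mark matches, on either strand, to TGCACNC and TGCGCNC (the core of the metal response element, searched after the values were seen), CAGACA (SMAD), TGANTCA (AP-1) and GGAATG (TEAD).
Mt1, chr8:94178839-94179138, + strand: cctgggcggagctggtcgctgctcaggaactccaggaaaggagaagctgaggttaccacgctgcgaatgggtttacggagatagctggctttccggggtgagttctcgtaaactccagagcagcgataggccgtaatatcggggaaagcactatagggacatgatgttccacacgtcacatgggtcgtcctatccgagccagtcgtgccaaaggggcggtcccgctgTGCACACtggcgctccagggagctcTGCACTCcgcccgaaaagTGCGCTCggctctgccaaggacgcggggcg
Mt2, chr8:94172368-94172667, + strand: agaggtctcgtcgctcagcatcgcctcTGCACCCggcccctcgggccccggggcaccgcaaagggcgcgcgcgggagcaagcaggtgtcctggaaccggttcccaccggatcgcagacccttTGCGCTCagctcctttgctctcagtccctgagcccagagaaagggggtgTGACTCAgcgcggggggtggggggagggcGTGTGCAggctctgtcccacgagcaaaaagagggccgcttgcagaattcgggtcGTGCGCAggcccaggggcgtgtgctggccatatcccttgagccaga
Krt20, chr11:99438104-99438403, - strand: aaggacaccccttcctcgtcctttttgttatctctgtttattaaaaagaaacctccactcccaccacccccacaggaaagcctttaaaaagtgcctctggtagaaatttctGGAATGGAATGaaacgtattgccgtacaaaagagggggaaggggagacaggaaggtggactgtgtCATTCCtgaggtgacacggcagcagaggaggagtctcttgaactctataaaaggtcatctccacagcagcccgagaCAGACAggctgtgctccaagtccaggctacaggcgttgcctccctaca
Marcksl1, chr4:129513331-129513630, + strand: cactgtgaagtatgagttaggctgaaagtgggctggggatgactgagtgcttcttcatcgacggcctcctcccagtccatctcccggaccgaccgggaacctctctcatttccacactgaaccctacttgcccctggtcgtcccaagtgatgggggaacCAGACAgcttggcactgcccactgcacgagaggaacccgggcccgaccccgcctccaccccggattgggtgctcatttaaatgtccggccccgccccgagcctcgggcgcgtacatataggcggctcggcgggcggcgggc
The Mt1 window held 2 matches to TGCACNC and 1 to TGCGCNC. The Mt2 window held 2 of each and 1 of TGANTCA. Krt20 had 3 matches to GGAATG, of which the first pair overlap by a base, and 1 to CAGACA at the start of the gene. Marcksl1 had 1 to CAGACA. Fcgrt and Ddit4, raised more than these genes but not shown, had 0 matches to CAGACA and GGAATG, as had Rhob. The promoters shown therefore do not stand for all raised genes. Among all 32851 promoters of this length, 12.6% held TGCACNC, 15.4% TGCGCNC, 21.0% CAGACA, 7.81% TGANTCA and 14.7% GGAATG. At least 1 match to CAGACA was found in 5 of the 11 raised genes with an entry and in 4 of the 10 lowered genes. For GGAATG these counts were 4 and 2, for TGANTCA 0 and 3, for TGCACNC 2 and 2, and for TGCGCNC 3 and 3. Counted by gene, as these are, 23.6% of all 27025 genes with an entry held CAGACA, 16.6% GGAATG, 8.97% TGANTCA, 14.2% TGCACNC and 17.0% TGCGCNC. The motif TGATGNAA (C/EBP and ATF factors), searched as well, was in 0 of the 11 raised and 1 of the 10 lowered genes, against 4.51% of all genes. The palindrome GTCTAGAC, held by 0.213% of all promoters, was in 0 of the 21 genes. These are matches of letters in a window, not measured binding.

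Of 6 counted members of the feedback list, 3 were at least 2-fold higher and 0 lower. The median log2 ratio was 0.64 against 0.03 for all genes. Of these members, Pmepa1 and Smad7 were under 20 CPM at 0 h and are counted only through their 6 h values. Pmepa1 had 15.6 CPM (14.2 to 17.2) at 0 h, 161 (156 to 165) at 6 h, 231 at 15 h and 334 at 24 h, so it was 10.3-fold higher at 6 h (9.32 to 11.4) and went on upward. Skil, which encodes the SMAD co-repressor SnoN, had 28.0, 83.8, 96.0 and 101 CPM at 0, 6, 15 and 24 h, 2.99-fold higher at 6 h (2.76 to 3.25). Most of the distance that Skil covered by 24 h was therefore present at 6 h. Smad7, the inhibitory SMAD that blocks the receptor, had 14.7, 30.2, 37.6 and 40.5 CPM, 2.06-fold higher at 6 h with an interval (1.83 to 2.32) that crosses 2-fold. The co-repressors Ski and Tgif1 and the ubiquitin ligase Smurf2 were 1.18-, 1.23- and 1.19-fold higher. A pair of members too sparse to be counted is added here because of their values. Smad6, the inhibitory SMAD of the BMP branch, had 55 UMIs at 0 h and 257 at 6 h (3.94-fold, 2.93 to 5.37), and Ldlrad4, another membrane inhibitor of SMADs, had 19 and 123 UMIs (5.46-fold, 3.35 to 9.38).

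The counted receptors and signal carriers stayed within 2-fold of their vehicle values, and Smad4 rose most among them. Of 5 counted ligands, receptors and SMADs, 0 passed 2-fold in either direction and the median log2 ratio was 0.05. Tgfbr1 had 19.6 CPM at 0 h and 22.3 at 6 h, Tgfbr2 38.3 and 37.7, Smad2 26.5 and 26.1 and Smad4 63.9 and 81.6. Tgfb1 itself was hardly detected, with 0.638 and 0.645 CPM. The Id genes, targets of the BMP branch that block differentiation factors, did not move together. Id2 had 46.1 CPM at 0 h and 27.9 at 6 h, Id3 had 41.2 and 25.1, and Id1 had 56.4 and 63.1. None of the 3 passed 2-fold, and Id2 and Id3 held their 6 h level at 15 h (24.6 and 25.2 CPM) and 24 h (25.7 and 26.9 CPM).

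Of 4 counted matrix and adhesion genes, 0 were at least 2-fold higher and all 4 lay above 0 (median log2 ratio 0.43). Thbs1, the matricellular protein thrombospondin 1, had 28.6, 39.5, 107 and 245 CPM at 0, 6, 15 and 24 h. Lamb3, a chain of an epithelial laminin, had 24.8, 33.3, 66.7 and 84.6 CPM. Both reached most of their gain after 6 h. Timp3, an inhibitor of metalloproteinases that falls short of a mean of 20 CPM, had 5.54 and 23.9 CPM, 4.31-fold higher at 6 h (3.61 to 5.16). Lama3, the alpha chain of the same laminin, went from 2 UMIs to 149, a ratio of 62.8 with a counting interval from 17.1 to 524. It was picked out after its values were seen.

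Clu, which encodes the secreted chaperone clusterin and marks cells of the regenerating intestine, had the highest ratio of the counted members of the regenerative list. It had 13.3 CPM (12.0 to 14.8) at 0 h, 67.8 (65.0 to 70.7) at 6 h, 325 at 15 h and 773 at 24 h. The 6 h value was 5.09-fold above vehicle (4.56 to 5.71) and a small share of the 24 h value. Of the 9 counted members, 2 were at least 2-fold higher (Clu and the keratin Krt7), 0 lower, and the median log2 ratio was 0.48. Clu, under 20 CPM at 0 h, is counted only through its 6 h value. The list summed to 978 CPM at 0 h, 1472 at 6 h, 3345 at 15 h and 5822 at 24 h. S100a6, a calcium-binding protein, had 180 and 322 CPM at 0 and 6 h, and Cd44, the hyaluronan receptor, 44.1 and 64.6. Anxa1, an annexin of injured epithelium, had 3.25 and 4.01 CPM at these times and 98.2 at 24 h. Ly6a, the surface antigen Sca-1 of regenerating crypts, had 2.00 and 0.483 CPM, with 7.15 at 24 h.

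Genes named as YAP targets split. Of 8 counted, 0 passed 2-fold, 6 lay above and 2 below 0, and the median log2 ratio was 0.15. Edn1, the vasoactive peptide endothelin 1, had 136 CPM at 0 h, 232 at 6 h and 872 at 24 h, and Ccn1, a matricellular protein, had 143, 194.6 and 471. Areg, the EGF receptor ligand amphiregulin, was lower at 6 h, with 255 and 154 CPM, and stood at 399 at 24 h. Ccn2 had 32 and 109 UMIs. The AP-1 and immediate early list (18 counted) had 0 members past 2-fold and a median log2 ratio of -0.03. Its highest was Klf10, a zinc finger gene known as TGFB-inducible early gene 1, with 40.8 and 81.3 CPM (1.99-fold, 1.86 to 2.14).

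All 4 counted members of the villus tip and squamous list (Krt20, Sfn, Ada and Sprr2a3) were at least 2-fold higher, and the median log2 ratio was 1.28. Sprr2a3, under 20 CPM at 0 h, is counted only through its 6 h value. Krt20, a keratin of mature surface epithelium, had 160 CPM at 0 h, 427 at 6 h, 453 at 15 h and 440 at 24 h. It was thus at its later level by 6 h (2.67-fold, 2.58 to 2.76). Sfn, the adaptor protein 14-3-3 sigma, had 85.2 and 187 CPM. Sprr2a3, a small proline-rich protein of the cornified envelope, had 19.8 and 68.7 CPM, but Sprr2a1, Sprr2a2 and Sprr2a3 are near-identical copies whose shared UMIs were split between them, so the value of each is uncertain. Of the uncounted members, Sprr1a ran the other way, with 17.3 and 10.9 CPM.

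**Figure D2:**
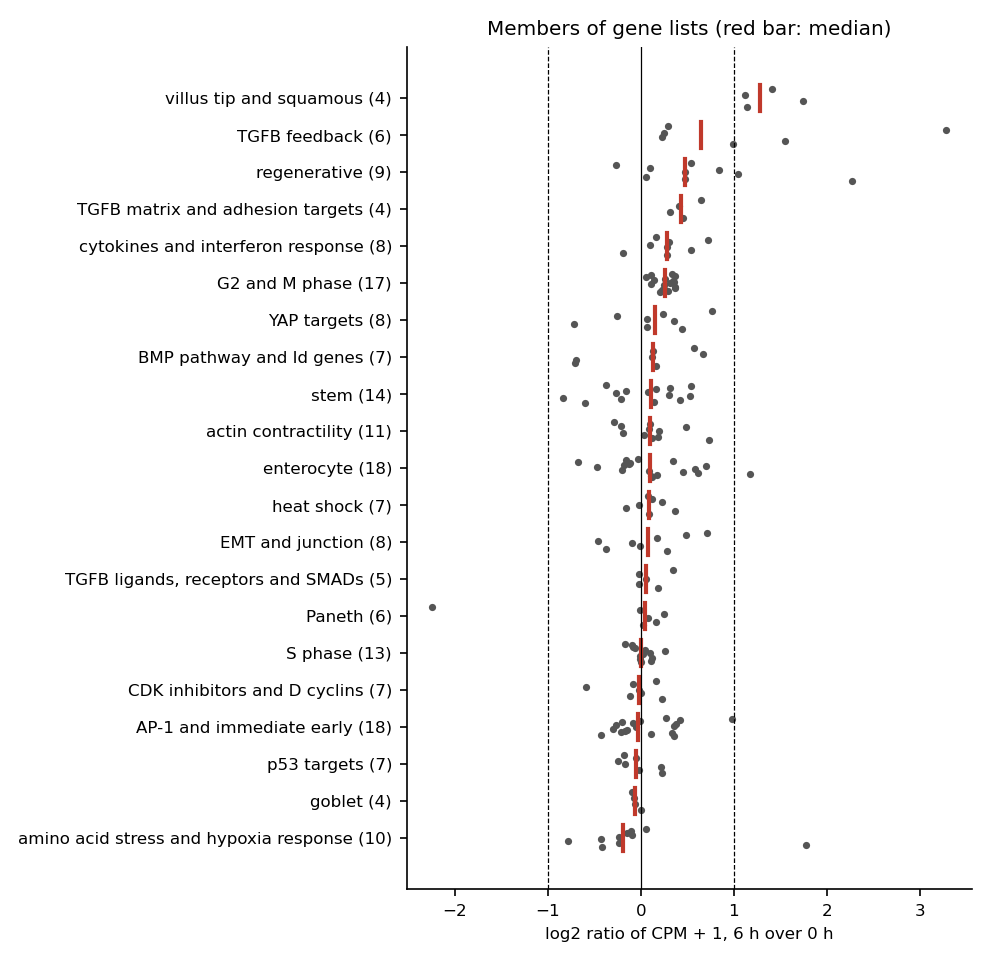
Log2 ratio of CPM + 1, 6 h over 0 h, of the counted members of 21 gene lists, 1 point per gene, with the number of members in parentheses and the median as a red bar. Dashed lines mark 2-fold. The villus tip and squamous list and the feedback list have the highest medians (1.28 and 0.64), and the stress list the lowest (-0.19).

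Several of the 46 genes encode enzymes or carriers of lipids and other metabolites, a grouping made after the values were seen and not tested. Acat1, the mitochondrial acetoacetyl-CoA thiolase, had 84.2 CPM at 0 h and 204 at 6 h (2.42-fold, 2.31 to 2.54). Lpin1, a phosphatidate phosphatase, had 13.2, 49.7, 40.1 and 31.9 CPM over the 4 times, highest at 6 h. Scd2, a stearoyl-CoA desaturase, had 454, 971, 782 and 669 CPM. Cyp2b10, a cytochrome P450 of xenobiotic metabolism, had 128, 312, 136 and 68.8 CPM. These last 3 genes were higher at 6 h than at any other time, and Cyp2b10 ended below vehicle. Apoa1, the main apolipoprotein of HDL, had 805, 1813, 2452 and 2468 CPM and was the only one of 18 counted enterocyte genes past 2-fold, where the list's median log2 ratio was 0.09. Mfsd2a and Lpcat4, a transporter and an acyltransferase of lysophospholipids, were 2.22- and 2.00-fold higher. Gch1, the first enzyme of tetrahydrobiopterin synthesis, had 27.5 and 70.3 CPM.

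Ddit4, which encodes an inhibitor of mTORC1 known from hypoxia and amino acid stress, had 70.5 CPM at 0 h, 244 at 6 h, 185 at 15 h and 160 at 24 h. It was 3.46-fold higher at 6 h (3.29 to 3.64), and it was the only counted member of the stress list that was higher by 2-fold. The other members of that list, of amino acid stress and hypoxia genes, lay mostly the other way. Of the 10 counted members, 8 were below 0, with a median log2 ratio of -0.19 against 0.03 for all genes. Asns, asparagine synthetase, had 135 CPM at 0 h and 77.7 at 6 h. Trib3, a pseudokinase induced by ATF4, had 22.5 and 8.11 and is too sparse to be among the counted members. Ddit3, the stress transcription factor CHOP, had 43.3 and 32.1, while Atf4 itself had 418 and 355. Atf5, a related transcription factor outside the list, had 118, 37.4, 29.4 and 30.1 CPM over the 4 times, 3.15-fold lower at 6 h (2.95 to 3.37). Mthfd2, a mitochondrial enzyme of folate metabolism, had 73.5 and 38.3 CPM, and Cth, which makes cysteine from cystathionine, 223 and 122. All 3 stayed low: at 24 h Atf5, Mthfd2 and Cth stood at 30.1, 24.7 and 80.0 CPM.

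Others of the 46 have roles in the cytoskeleton, in membrane transport or in secretion, again a grouping made after the values were seen. Rhob, a small GTPase of actin and endosomes, had 87.2, 236, 318 and 377 CPM over the 4 times (ratio of 6 h to 0 h between 2.58 and 2.83). Marcksl1, a membrane protein that binds actin, had 23.0, 66.4, 69.8 and 98.2 CPM (2.88-fold, 2.64 to 3.16). Arhgdig, a GDP dissociation inhibitor of small GTPases, had 14.6, 40.7, 17.4 and 18.5 CPM and was thus high at 6 h and near vehicle later. Fcgrt, the heavy chain of the neonatal Fc receptor that carries IgG across epithelium, had 11.5, 70.4, 125 and 143 CPM (6.14-fold, 5.46 to 6.94). Rab27b, a GTPase of secretion, had 7.91 and 33.0 CPM. Lgals3, which encodes galectin-3, had 21.2 and 50.6. The list of actin contractility genes as a whole had 0 of 11 counted members past 2-fold and a median log2 ratio of 0.10. Of the other raised genes, Igfbp4, Galnt6, Blvrb, Adgrg1, Gkn3, Bok, Eef2k, Plek2, Il13ra1, S100a14, Bcl3, Sema6d, Tmem37, Unc5cl, Auts2, Nhsl1, Colgalt1, Lrrc58 and Ctrb1 ranged from 2.02-fold (Lrrc58) to 3.69-fold (Gkn3).

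Mt1 and Mt2 were the most abundant of the 12 lowered genes, while Nupr1, Atf5, Akr1c14 and the Gvin pair had the lowest ratios. Mt1 had 13286 CPM at 0 h, 5684 at 6 h, 5906 at 15 h and 8130 at 24 h, 2.34-fold lower at 6 h (2.32 to 2.35). Mt2 had 8543, 3931, 3957 and 4584 CPM, 2.17-fold lower (2.16 to 2.19). Both were lowest at 6 h, and Mt1 regained part of its level by 24 h. Slc39a8, the zinc importer ZIP8, had 36.4, 12.99, 9.40 and 9.23 CPM. Nupr1 had 39.8, 7.62, 43.0 and 140 CPM, so its low value at 6 h was followed by values above vehicle. Akr1c14, a hydroxysteroid dehydrogenase, had 66.3, 22.2, 13.2 and 15.8 CPM, and Soat1, which esterifies cholesterol, 98.5, 47.8, 43.2 and 43.4. Nr1d1, the circadian repressor Rev-erb alpha, had 34.5, 16.8, 17.6 and 48.4 CPM. Lcp1, an actin-bundling plastin, had 44.3 and 16.3 CPM, and Ugt2b36, a glucuronosyltransferase, 87.3 and 40.6. Gvin1 and Gvin2, interferon-inducible GTPases, had the same 22.6 CPM at 6 h because they are near-identical and shared their UMIs, so their single values are uncertain.

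**Figure D3:**
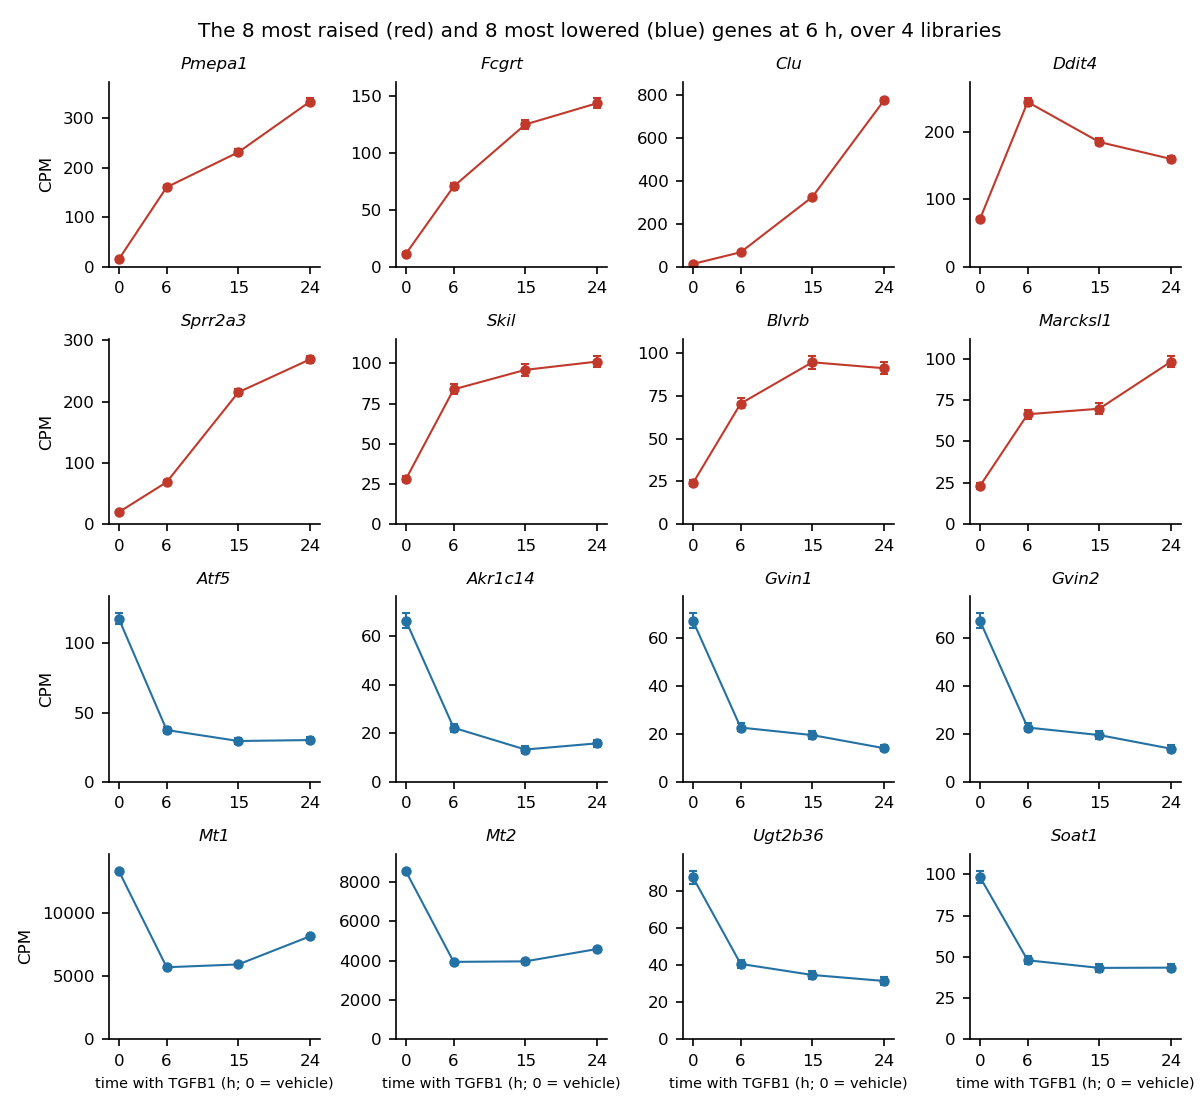
CPM (vertical axes, from 0) at 0, 6, 15 and 24 h of TGFB1, 1 library per time, for the 8 most raised (red) and 8 most lowered (blue) genes with at least 50 CPM in the higher of the 0 h and 6 h libraries. Bars are exact Poisson intervals (95%). Ddit4 is highest at 6 h, Clu gains most of its level after 6 h, and Mt1 and Mt2 are near their 15 h level by 6 h.

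Over the later libraries, 10 of the 46 raised genes had their highest value at 6 h, 11 at 15 h and 25 at 24 h. Of the 12 lowered genes, 4 each were lowest at 6, 15 and 24 h, and 2 (Nupr1 and Nr1d1) were highest at 24 h. All these values share the same vehicle library and are given as levels only. The genes were chosen on their 0 h and 6 h values, so part of these counts was given beforehand. The same split was not made for all genes counted.

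Stem cell genes were mixed. Of 14 counted, 0 passed 2-fold, 8 lay above and 6 below 0, and the median log2 ratio was 0.11. Lgr5, the receptor that marks crypt stem cells, had 35.9 CPM at 0 h and 23.4 at 6 h, 30.5 at 15 h and 37.0 at 24 h. Smoc2, a matricellular gene of the same cells, had 201 CPM and 112 CPM at 0 and 6 h (1.79-fold lower, 1.72 to 1.87) and remained near 98 at 15 and 24 h. Olfm4 had 1965 and 2169 CPM. Rnf43, a ubiquitin ligase that limits Wnt receptors, had 42.3 and 61.5 CPM.

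Cell cycle genes were not lower at 6 h as a group. Of 17 counted G2 and M phase genes, 0 passed 2-fold and all 17 lay above 0. Their median log2 ratio was 0.26, against 0.03 for all genes. The list summed to 989 CPM at 0 h, 1181 at 6 h, 750 at 15 h and 560 at 24 h. The S phase list (13 counted, 0 past 2-fold, median log2 ratio 0.00) summed to 1081, 1113, 684 and 854 CPM. Mki67, the proliferation antigen, had 125 and 144 CPM at 0 and 6 h and 59.8 at 24 h. The share of cells in the G2 and M phase-like clusters, described below, was also larger at 6 h. With the 6 h cells weighted to the cluster shares of 0 h, the ratio of Mki67 was 1.04 in place of 1.15. That of Aurka, a mitotic kinase, was 1.15 in place of 1.30. That of Cdc20, an activator of mitotic exit, was 1.15 in place of 1.29. These genes were themselves open to the clustering, so smaller ratios after weighting were in part given beforehand. A change in cell shares was not tested. Among CDK inhibitors and D cyclins, 0 of 7 passed 2-fold: Cdkn1a (p21) had 109 and 128 CPM, Cdkn2b (p15), a known TGFB1 target, 41.83 and 41.84 CPM, and Ccnd2, a D cyclin, 363 and 241.

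To see which cells carried these differences, both libraries were clustered together with the genes that differed 2-fold between them left out. The 8 clusters with enough cells were an enterocyte-like one (668 and 1187 cells at 0 and 6 h), an S phase-like one (554 and 700), a pair of G2 and M phase-like ones (455 and 775; 199 and 376), a villus tip and squamous-like one led by Sprr1a and Msln (120 and 163), a goblet-like one led by Tff3 and Hepacam2 with the enteroendocrine gene Neurog3 (59 and 83), and 2 unnamed ones. The unnamed clusters were led by Reg3g, Ctrb1 and Rgn (cluster 4, 496 and 437 cells) and by Dmbt1, Fcgrt and Ctrb1 (cluster 5, 354 and 542). The goblet-like cluster stood above the other cells in tuft and enteroendocrine markers too. Their median log2 folds were 4.53 and 2.93, against 5.435 for goblet markers, so its values may not be those of goblet cells alone. Cluster 9 (27 and 20 cells), led by short RNAs such as 7SK, is given no ratio. The enterocyte-like cluster held 22.8% of the cells at 0 h and 27.7% at 6 h, the S phase-like one 18.9 and 16.3%, the G2 and M phase-like ones 15.5 and 18.1% and 6.79 and 8.78%, cluster 4 16.9 and 10.2%, cluster 5 12.1 and 12.7%, the villus tip and squamous-like one 4.09 and 3.81%, and the goblet-like one 2.01 and 1.94%. With 1 library per time these shares have no replicate error.

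The raised genes were higher in nearly every kind of cell. Of the 46, 29 were at least 2-fold higher in 6 or more of the 8 clusters and 42 lay above vehicle in all 8, and 5 passed 2-fold in 8 of 8. Among all genes counted within a cluster, the share at least 2-fold higher in clusters 1 to 8 was 0.49, 0.959, 1.21, 1.13, 1.34, 1.33, 1.37 and 1.09%. The share at least 2-fold lower was 0.151, 0.455, 0.572, 0.693, 0.508, 0.651, 0.857 and 0.302%. The cluster numbers are 1 for enterocyte-like, 2 for S phase-like, 3 and 6 for G2 and M phase-like, 7 for villus tip and squamous-like and 8 for goblet-like cells. The 46 genes were chosen on the sum of these same cells, so a like direction within clusters was in large part given beforehand. The genes that set the clusters were chosen on the same cells as well. The counts are a description, and counts over several clusters were not made for all genes. Pmepa1 was 1 of these 5. It reached 248 CPM in cluster 3 (20.3 at 0 h), 241 in cluster 6 (21.5), 240 in cluster 7 (29.4) and 227 in the S phase-like cluster (22.4), and was lowest in the enterocyte-like cluster, with 30.9 CPM (6.03 at 0 h). Its ratio ran from 5.13 in that cluster to 12.2 in cluster 3. The other 4 were Ddit4, Marcksl1, Lpin1 and Rab27b. Ddit4 reached 467 CPM in cluster 3 and 513 in the goblet-like cluster, against 48.6 in enterocyte-like cells. Cyp2b10 showed the opposite distribution, with 905 CPM at 6 h in enterocyte-like cells (403 at 0 h) and 13.9 in S phase-like cells (10.3 at 0 h). The raised genes thus include Ddit4, with a higher level in dividing than in enterocyte-like cells, and Cyp2b10, with the reverse.

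Clu had its highest level in the villus tip and squamous-like cluster, with 88.9 CPM at 0 h and 214 at 6 h, while its larger ratios lay elsewhere. The largest was in cluster 6, with 3.65 and 39.0 CPM (10.7-fold, 8 and 129 UMIs), followed by cluster 5, with 2.35 and 22.0 CPM (9.38-fold, 8 and 84 UMIs). Clu had 21.3 and 140 CPM in S phase-like cells (6.58-fold), 19.6 and 122 in cluster 3 (6.24-fold), and 3.37 and 6.74 in enterocyte-like cells (2.00-fold), where the counts were 19 and 54 UMIs. Krt20 was highest in the villus tip and squamous-like cluster, with 920 and 2931 CPM, and passed 2-fold in 7 of 8. In enterocyte-like cells it had 354 and 659 CPM (1.86-fold). Sprr2a1 was 1.25-fold higher in the villus tip and squamous-like cluster, where it stood at 6738 and 8449 CPM, and 19.3-fold in cluster 3 (18.1 and 350 CPM). Its ratio was thus smallest in the cells in which it was most abundant.

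**Figure D4:**
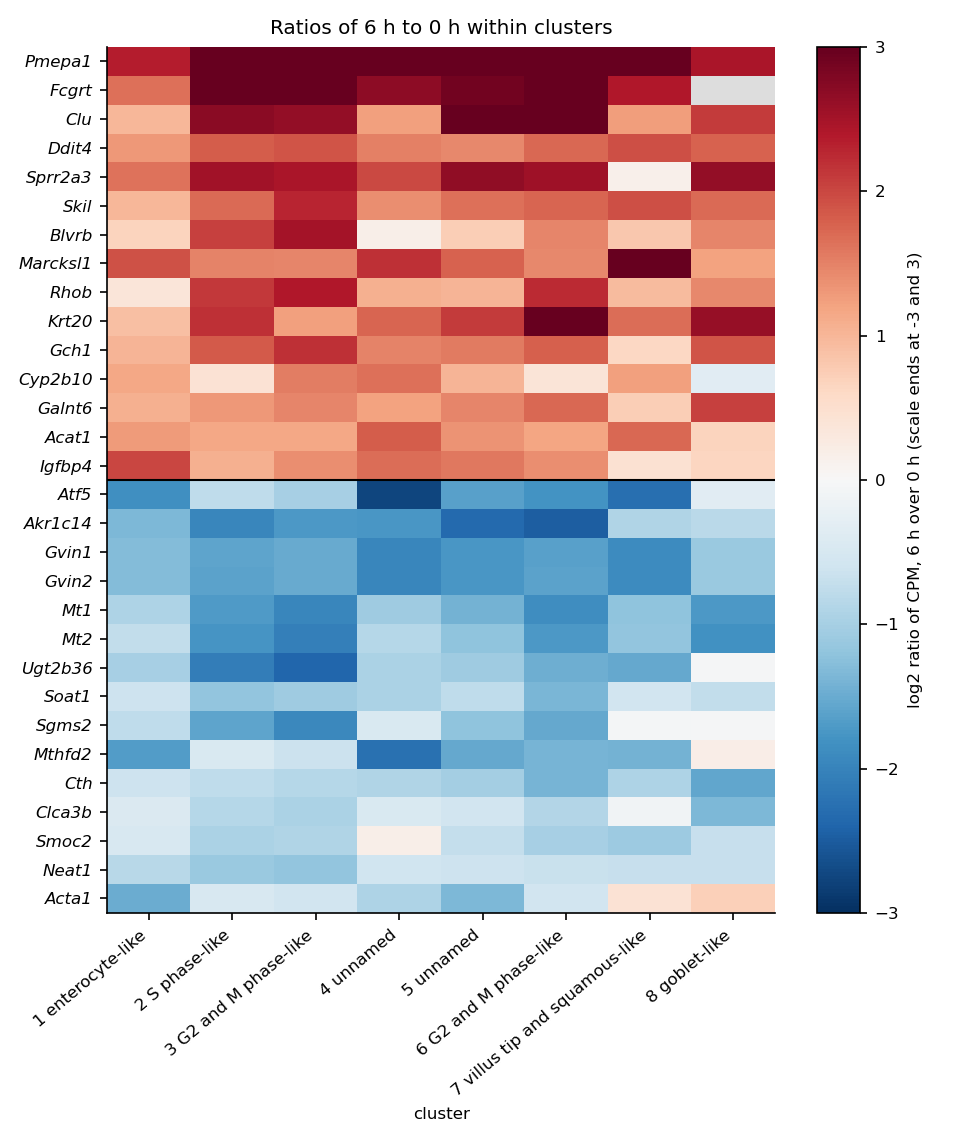
Log2 ratio of CPM, 6 h over 0 h, within 8 clusters (columns) for the 15 most raised (top) and 15 most lowered (bottom) genes with at least 50 CPM, 1 library per time. Red is higher and blue lower at 6 h, the colour scale ends at -3 and 3, and grey marks a ratio not given because of too few UMIs. Pmepa1 is red and Gvin1 blue in all 8 clusters, and Acta1 differs in direction between clusters.

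All 12 lowered genes lay below vehicle in all 8 clusters, and 9 of them were at least 2-fold lower in 6 or more. They too were chosen on the sum of these cells, so these counts are a description. Nupr1 passed 2-fold in 8 of 8, from 62.0 to 3.37 CPM in cluster 4 and from 21.6 to 10.2 in the villus tip and squamous-like one. Atf5 was lowest relative to vehicle in cluster 4 (182 and 27.0 CPM) and close to vehicle in goblet-like cells (81.8 and 64.4 CPM, intervals that overlap). Mt1 was less than 2-fold lower in enterocyte-like cells alone of the 8 clusters, with 22670 and 11881 CPM, and had 5032 and 1303 CPM in cluster 3. Smoc2 was lower in the S phase-like cluster (386 and 201 CPM) and in cluster 3 (414 and 222 CPM), the clusters where it was abundant, and Lgr5 in the same pair (104 and 64.3 CPM, 71.3 and 50.6 CPM).

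The number of cells with a UMI moved with these levels. After each cell was thinned to 2000 UMIs (3 cells of the 6 h library had fewer and were left out), Pmepa1 was found in 2.90% of cells at 0 h (exact binomial 95% interval 2.32 to 3.57) and 22.6% at 6 h (21.3 to 23.9), against 12.7 and 50.3% without thinning. No cell type was taken as lacking Pmepa1. As a gauge of free RNA, the goblet gene Tff3 had a UMI in 7.34 and 7.67% of thinned enterocyte-like cells (median depth 7941.5 and 6315 UMIs) and in 83.0 and 86.7% of goblet-like cells (6583 and 4729 UMIs). Pmepa1 was in 1.20 and 5.64% of thinned enterocyte-like cells and in 3.52 and 36.4% of those of cluster 3. Nupr1 was found in 7.06% of thinned cells at 0 h and 1.61% at 6 h. Tff3 is more abundant than Pmepa1 and Nupr1, so its share sets no background level for either gene.

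The bulk libraries of irradiated day 7 organoids offered a replicated reading of the same genes after a higher dose and a longer time. In bulk RNA, fewer cells of a type and less RNA per cell cannot be told apart. With limma on log2(FPKM + 1), 4031 of 11258 genes (35.8%) were called higher and 4464 (39.7%) lower (Benjamini-Hochberg adjusted p under 0.05), so a call by itself is common there, and 877 (7.79%) and 607 (5.39%) were also at least 2-fold apart. Of the 46 genes raised at 6 h, 44 were tested, 41 were called higher and 2 lower, with 32 called and at least 2-fold higher and a median log2 change of 1.77 against -0.03 for all genes tested. Of the 12 lowered genes, 10 were tested, 8 were called lower, 5 of these by at least 2-fold, and 1 was called higher. Sprr2a3 and Gvin2 had no row in the bulk table, and Sprr2a1 and Gvin1 had under 1 FPKM there.

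Pmepa1 had 8.78, 9.05 and 9.58 FPKM with vehicle and 215, 223 and 229 with TGFB1 in the bulk libraries (log2 change 4.46, SE 0.04, limma adjusted p 1.80e-12). Skil rose from 3.45, 3.37 and 3.68 FPKM to 24.2, 22.3 and 24.6 (log2 change 2.46, SE 0.06, limma adjusted p 1.95e-10). Clu rose from 186, 179 and 208 FPKM to 3839, 3912 and 4154 (log2 change 4.37, SE 0.06, limma adjusted p 1.07e-11). In each of these genes all 3 TGFB1 libraries were above all 3 vehicle libraries. Smad7 rose with a log2 change of 2.11, Rhob with 3.90, Fcgrt with 3.64, Krt20 with 1.85, Ddit4 with 1.26 and Lpin1 with 0.28, with limma adjusted p of 0.000539 for Lpin1 and below that for the other 5. Sprr2a2 was not called: 1 TGFB1 library had 17.6 FPKM and the other 2 had 0.964 and 0.942 (limma adjusted p 0.289).

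Several genes pointed the other way in the bulk libraries. Cyp2b10, highest at 6 h in single cells, had 104, 105 and 110 FPKM with vehicle and 42.1, 37.0 and 37.4 with TGFB1 (log2 change -1.44, SE 0.05, limma adjusted p 2.70e-09). Scd2 fell as well, from 544, 511 and 525 FPKM to 367, 381 and 361 (log2 change -0.51, SE 0.04, limma adjusted p 5.14e-07). In the single-cell libraries Cyp2b10 was also below vehicle by 24 h, whereas Scd2 was still above it (669 against 454 CPM). Nupr1, lowered at 6 h, rose from 66.1, 64.7 and 73.9 FPKM to 417, 432 and 553 (log2 change 2.75, SE 0.11, limma adjusted p 5.28e-07). In the single-cell libraries Nupr1 was likewise above vehicle by 24 h (140 against 39.8 CPM). Dose, time, day and method all differ between the experiments, so their part in these reversals cannot be told apart. Atf5 fell from 80.6, 85.4 and 84.5 FPKM to 49.6, 52.4 and 59.4 (log2 change -0.63, SE 0.06, limma adjusted p 4.66e-06). Akr1c14 fell by 1.97, Soat1 by 1.48, Lcp1 by 1.49 and Mt2 by 0.38 on the log2 scale, with limma adjusted p of 9.41e-05 (Mt2) or less. Mt1 had 12611, 13393 and 13301 FPKM with vehicle and 11700, 12558 and 11428 with TGFB1 (log2 change -0.14, SE 0.05, limma adjusted p 0.0168). That call was lost without vehicle replicate 2 or 3 or TGFB1 replicate 1, and the limma adjusted p over all alternatives ran from 0.00506 to 1. Nr1d1 was not called (log2 change 0.10, SE 0.04, limma adjusted p 0.0659), but it was without vehicle replicate 1 (0.0174).

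**Figure D5:**
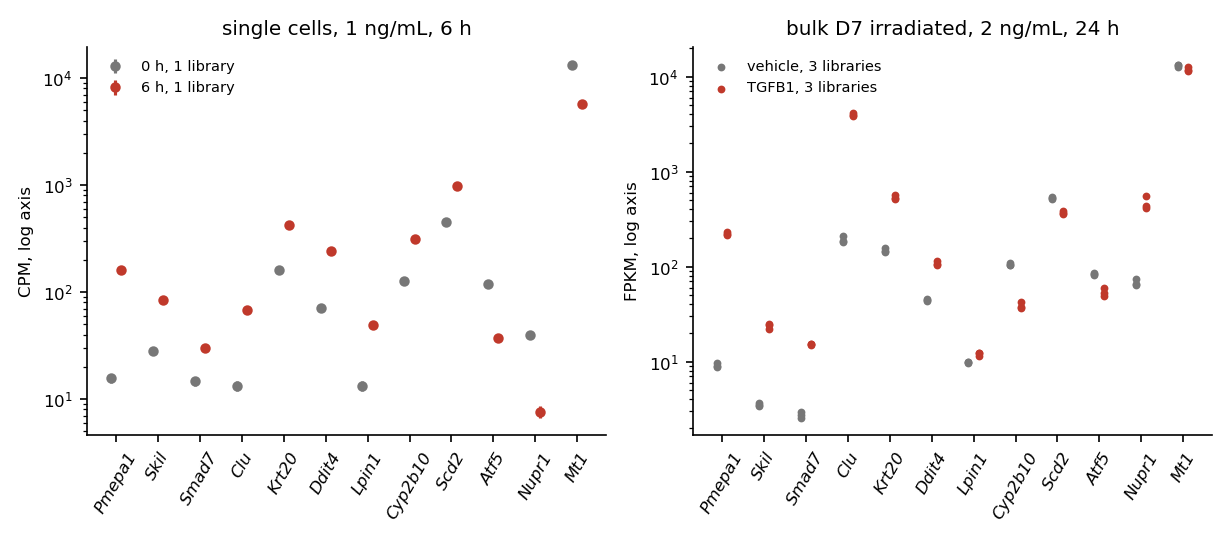
Left, CPM of 12 genes in the 0 h (grey) and 6 h (red) single-cell libraries, with exact Poisson intervals (95%), mostly smaller than the points. Right, FPKM of the same genes in the 3 vehicle (grey) and 3 TGFB1 (red) bulk libraries of irradiated day 7 organoids, 1 point per library; both vertical axes are log scales, and CPM and FPKM are different units. Cyp2b10, Scd2 and Nupr1 differ in direction between the panels.

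The same cell cycle lists were lower in the bulk libraries. All 18 G2 and M phase genes and all 18 S phase genes were called lower there, against 39.7% of all genes. Mki67 fell from 56.4, 55.4 and 58.1 FPKM to 11.3, 12.9 and 9.90 (log2 change -2.22, SE 0.08, limma adjusted p 4.26e-09). Lgr5 fell from 21.9, 21.8 and 21.6 FPKM to 8.93, 9.78 and 7.84 (log2 change -1.21, SE 0.07, limma adjusted p 5.91e-08). For several lists most tested members were called higher in bulk, although at most 2 counted members of each had passed 2-fold at 6 h. These calls were 18 of 18 AP-1 and immediate early genes, 16 of 17 YAP targets, 20 of 21 matrix and adhesion genes and 20 of 21 regenerative genes. Cytokine and interferon response genes had 15 of 15, actin contractility genes 15 of 17 and Paneth genes 10 of 12. Junction and epithelial-mesenchymal genes had 7 of 10 and p53 targets 9 of 16. Enteroendocrine and tuft genes, with 0 counted at 6 h, had 13 of 14 and 5 of 6. The share over all genes was 35.8%. Bulk calls in this paragraph need no 2-fold change, unlike the counts at 6 h. Called and at least 2-fold higher were 12 AP-1 and immediate early genes, 10 YAP targets, 18 matrix and adhesion genes and 18 regenerative genes. Cytokine and interferon response genes had 12, actin contractility genes 10, Paneth genes 3, junction and epithelial-mesenchymal genes 1 and p53 targets 3. Enteroendocrine genes had 5 and tuft genes 2, and the share over all genes was 7.79%. Other lists with at most 2 members past 2-fold at 6 h were not mostly higher: 6 of 18 stem cell genes were called higher and 7 lower, 6 and 11 of 19 enterocyte genes, 0 and 9 of 10 goblet genes, 3 and 8 of 11 CDK inhibitors and D cyclins, 4 and 5 of 10 heat shock genes and 6 and 6 of 14 amino acid stress and hypoxia genes. Id1 rose (log2 change 0.81, limma adjusted p 1.14e-08), Id2 fell (log2 change -0.61, limma adjusted p 2.33e-05) and Id3 was not called (log2 change -0.09, limma adjusted p 0.120). Asns fell from 133, 129 and 123 FPKM to 84.0, 87.7 and 86.5 (log2 change -0.57, SE 0.04, limma adjusted p 2.62e-07), and Trib3 was not called (log2 change -0.02, limma adjusted p 0.850).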

How the data were processed

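The deposited single-cell matrices hold estimated counts: UMIs per gene and barcode, in part split between genes (9.11% of UMIs at 0 h and 8.64% at 6 h are in fractional entries). Per the labels, the PIPseq T2 kit was used. The submitters' processing notes name STARsolo, STAR 2.7.10a, TopHat2 2.1.0, Cuffnorm 2.2.1 and Cuffdiff 2.2.1 without their roles, and do not say which build belongs to which file. The bulk table deposited by the authors holds FPKM. Its read depth is unknown. 0 of its sample columns were unmapped.

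Estimated counts were not rounded, since no count model was fitted. They were summed over kept cells per symbol and divided by the library total (CPM). Genes with a mean of at least 20 CPM were counted, and those at least 2-fold apart are the raised and lowered genes. The rule for named genes took the 15 highest and 15 lowest ratios of CPM + 1 among symbols with at least 50 CPM in either library, up to 4 members of each list with the largest ratios, and defining members of pathways. The other raised and lowered genes (under 50 CPM or beyond the 15) and the list members Anxa8, Atf4, Ccn2, Cdh1, Cdkn2b, Chac1, Ddit3, Gcg, Lama3, Ldlrad4, Nkd1, Nt5e, Pyy, Ski, Smad6, Smurf2, Sprr1a, Tgfb1 and Tgfbr2 are outside this rule and were chosen after their values were seen. Some genes that the rule or the 2-fold limit would name are not reported here. The members, lists and tests were chosen with earlier results of these data known. Log2 ratios of list members are of CPM + 1, which understates those of low genes.

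Clusters came from scanpy 1.11.5 and leidenalg 0.10.2 (2000 variable genes, 30 components, 15 neighbours, resolution 0.6), after leaving out 224 genes 2-fold apart. A cluster was named from its marker list if at least 1 marker was among its 10 leading genes, and ratios needed 30 cells of each library. Doublets were called with Scrublet (31 cells, 1.06%, at 0 h; 85, 1.98%, at 6 h) and kept, with their removal as an alternative. The calculation was tested on simulated data.

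FPKM were tested with limma 3.58.1 (R 4.3.3, limma-trend, robust empirical Bayes) on log2(FPKM + 1) two-sided, for genes averaging 1 FPKM or more in the 6 libraries, with Benjamini-Hochberg adjustment. The labels do not say whether the 3 libraries of a group came from separate cultures, so p-values measure the spread between these libraries. Bulk symbols were matched by name or RefSeq synonym. Alternatives were other cell filters, scalings, low-value limits and folds, leaving out each bulk library, quantile normalization, another pseudocount and a replicate block. Weighting the 6 h cells to the 0 h cluster shares was added after seeing the data.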

Additional observations from a re-analysis of the deposited data

How the results depend on the processing

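The counts of 46 higher and 12 lower genes depended most on the limits set: they were 103 and 29 with a mean of at least 5 CPM, 13 and 2 with at least 100 CPM, and 146 and 73 at 1.5-fold. Other cell filters, removal of doublets, median-of-ratios scaling, equal weight per cell, whole-number entries and weighting to the 0 h cluster shares gave 40 to 48 higher and 11 to 14 lower. Of 119 named genes, 31 were at least 2-fold apart on the CPM + 1 scale and 0 of these changed sign, while 7 of the other 88 did. In the bulk libraries, requiring 2-fold left 877 genes higher and 607 lower, and 5 of the genes lowered at 6 h in place of 8. Leaving out 1 bulk library gave 3836 to 3908 higher and 4192 to 4387 lower, with 40 to 41 of the raised and 7 to 8 of the lowered genes called. Trib3, not called in any of these fits, had a log2 change of -0.13 to 0.06 when 1 library was left out, above 0 without vehicle replicate 1 (0.0165) or TGFB1 replicate 1 (0.0124) or 2 (0.0562), and of 0.0175 with quantile normalization. Unc5cl (adjusted p 0.0120) lost its call without vehicle replicate 3 or TGFB1 replicate 1, where the highest adjusted p was 0.0539. Mt1 had a log2 change of 0 under quantile normalization, which sets equal ranks equal. Same-numbered bulk libraries deviated together only weakly (correlations 0.0745, 0.213 and 0.0237), so the numbers were not taken as pairs; with a replicate block 3985 genes were higher and 4432 lower. With 1 library per time, what differs between cultures is unknown at any sequencing depth.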

Other observations

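A few genes outside the counted set had large ratios at low counts, and they were picked out after their values were seen. Anxa8, an annexin of squamous epithelium, had 4 UMIs at 0 h and 61 at 6 h (ratio 12.9, 4.77 to 48.7) and reached 29.9 CPM at 24 h. Nt5e, the ectonucleotidase CD73 of the villus tip, had 6.13 and 54.5 UMIs (7.49-fold, 3.25 to 21.0). Nkd1, a feedback inhibitor of Wnt signalling, had 30.3 and 93.4 UMIs (2.60-fold, 1.71 to 4.06). Chac1, an ATF4 target that degrades glutathione, had 336 and 126 UMIs, a ratio of 0.316 (0.256 to 0.389). Gcg, the proglucagon gene of enteroendocrine cells, had 108 and 33 UMIs, a ratio of 0.258. Pyy, another gut hormone, had 0 UMIs at 0 h, 9 at 6 h and 28.2 CPM at 24 h.

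Among cytokine and interferon response genes, 0 of 8 counted passed 2-fold and 7 lay above 0 (median log2 ratio 0.28). Irf1, an interferon response factor, had 25.5 CPM at 0 h and 42.7 at 6 h, and Ccl28, a mucosal chemokine, had 31.4 and 45.9 and then 30.8 and 15.7 at 15 and 24 h. Of 7 counted p53 targets, 0 passed 2-fold, and Mdm2, which limits p53, had 33.8 and 33.4 CPM. Junction genes were mixed: Epcam and Cdh1 (E-cadherin) were 1.40- and 1.22-fold higher, and Cldn3 and Ocln, proteins of tight junctions, had ratios of 0.726 and 0.772.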
